A study of Mus musculus with 24 samples.

Results

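The transcripts described here were well above background in brain and testis and not in the other tissues examined, where a weaker signal may remain. They were chosen by measured values on 15 tissue arrays. A transcript was taken when its probe was flagged well above background on all 3 brain and all 3 testis arrays and on none of the 9 heart, kidney and liver arrays, and when its mean level was at least -1 in both brain and testis. The level is the log2 processed signal minus the 75th percentile of the array, so that a level of 0 equals that percentile. Of 60804 transcript probes, 799 had this pattern of flags and 139 of them, 0.229% of all probes, also reached the minimum level. Their presence in brain and testis and their absence elsewhere follow from that choice and are not results.

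RNA came from 8-week-old male ICR mice with no treatment named (testis, brain, kidney, heart and liver) and from the F9, GC-1 and GC-2 mouse cell lines, with 3 one-colour lncRNA arrays for each of these 8 groups. The 3 arrays of a group are described as biological replicates, but no label ties an array to an animal or a culture, so that p-values measure the spread between these arrays, part of which may be technical. F9 is an embryonal carcinoma line that keeps features of male germ cells, GC-1 is an immortalized germ cell line of a stage just before the primary spermatocyte, and GC-2 is an immortalized line with features of spermatocytes. All lines were grown in the same medium, and F9 on gelatin without retinoic acid. In whole tissue, a lower level can mean fewer cells of a type or less RNA per cell, and these cannot be told apart.

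Long noncoding RNAs (lncRNAs) are transcripts longer than most small RNAs that do not code for protein, and many are found in few tissues. Brain and testis are known for rich and tissue-restricted transcript repertoires, in brain because of its many neuronal and glial cell types and in testis because transcription is widespread in meiotic and early postmeiotic germ cells. The array holds probes for lncRNAs and for mRNAs.

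Only 2 of the 139 transcripts could be identified, since the supplementary tables used here pair a name with 3456 of the probes. Both are lncRNAs, and their probe sequences are shown because they are what the array measured. The first is NR_046053, the RefSeq transcript of 4931430N09Rik, which spans chr6:118880158-118885543 on the plus strand of GRCm38 and is 2166 bases long after splicing. It is annotated as intronic antisense to Cacna1c, the gene of the pore-forming subunit of a voltage-dependent L-type calcium channel, whose RefSeq span of 118587240 to 119197384 encloses it. The other is AK015642, a transcript of 1383 bases at chr7:16963223-16964605 on the plus strand, which the array annotation lists as intergenic. In RefSeq the same stretch lies within Pnmal1, a protein-coding gene of the paraneoplastic Ma antigen family that spans 16949950 to 16964607 on chromosome 7, and AK015642 ends 2 bases before the end of Pnmal1. Signal from AK015642 and from Pnmal1 transcripts was therefore not separated here. The probe of NR_046053 is given whole, with 27 G or C among 60 bases, and the first 30 bases are given of the AK015642 probe, which has 21 G or C among 60 bases.
NR_046053 probe: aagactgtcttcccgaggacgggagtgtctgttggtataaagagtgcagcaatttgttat
AK015642 probe, first 30 bases: aaccttgagactcgattacatctttgttga

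AK015642 was higher in brain than in testis. Its level was 6.21, 6.45 and 6.34 on the brain arrays and 2.14, 2.31 and 2.25 on the testis arrays. The brain arrays all lay above the testis arrays, and the spread within each tissue was small, at 6.33 ± 0.12 and 2.24 ± 0.08 (SD, n = 3). Testis was lower by 4.10 on the log2 scale (limma estimate -4.10, standard error 0.26, adjusted p = 2.69e-09 with Benjamini-Hochberg adjustment over 60804 probes), a fold of 17.1. On the 9 heart, kidney and liver arrays the level lay between -5.52 and -3.26, never well above background, and the scanner's weaker flag, of a signal both positive and significant, was not set on any of them. Taking for each of those arrays the lowest level that was well above background, brain was at least 197-fold and testis at least 11.5-fold above each of the other tissues.

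NR_046053 was also higher in brain, by less. It read 3.97, 3.55 and 4.14 on the brain arrays and 0.63, 1.83 and 1.37 on the testis arrays. Again the brain arrays all lay above those of testis, but testis replicate 1 was apart from the other testis arrays. The difference was -2.61 (standard error 0.35, adjusted p = 9.36e-06 by limma with Benjamini-Hochberg adjustment), a fold of 6.11. It fell under the 5-fold limit used for calls in several settings, at -2.29 without testis replicate 1, -1.91 when arrays were scaled over probes detected on every tissue array, -2.25 after background correction by normexp and -2.07 with array constants taken from the supplementary tables, an alternative chosen after seeing the data. Brain was at least 36.2-fold and testis at least 5.93-fold above heart, kidney and liver, where the weaker flag was set on 1 kidney array.

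Neither identified lncRNA was well above background on any cell line array. For AK015642 the F9, GC-1 and GC-2 means were -4.19 ± 0.42, -5.15 ± 0.13 and -5.27 ± 0.38, and for NR_046053 they were -4.55 ± 0.47, -4.86 ± 0.27 and -4.81 ± 0.69 (SD, n = 3). All of these lie below the lowest level that was well above background on the same arrays. Both names come from a table of lncRNAs found in brain, whose entries used here had brain levels of 2.15 or more, so that an excess in brain is not independent of how they came to be named.

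**Figure D1:**
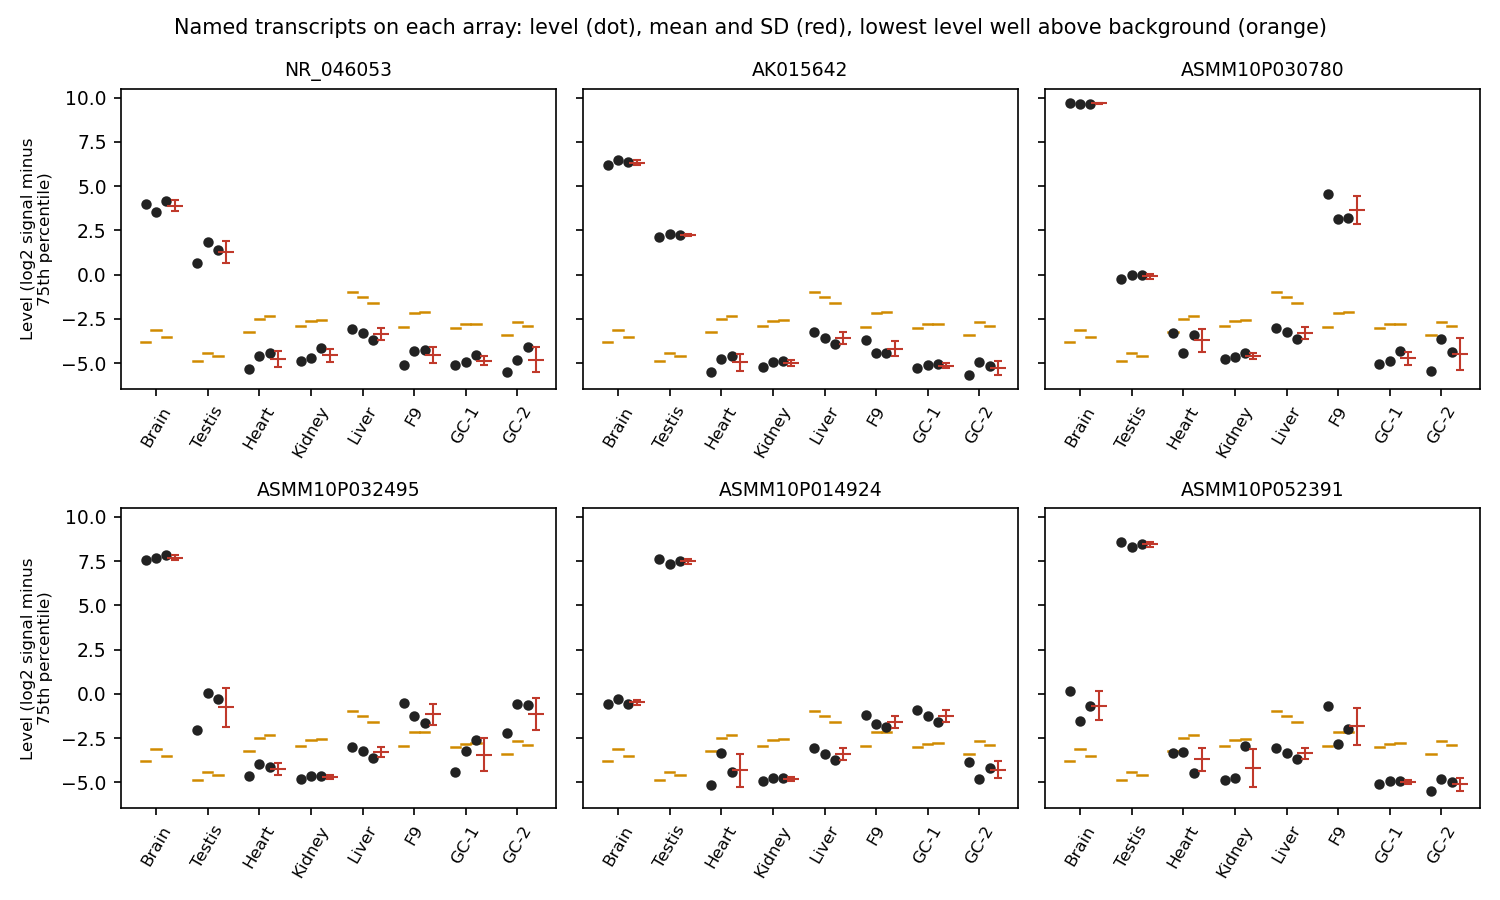
Levels of the 2 identified lncRNAs and of the 4 unidentified transcripts with the largest differences on all 24 arrays, as log2 signal minus the 75th percentile of the array. Dots are arrays in the order of replicates 1 to 3, red marks are the mean and SD (n = 3), and orange dashes are the lowest level well above background on each array; AK015642 and NR_046053 lie above the dashes in brain and testis and below them in the other 6 groups.

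The 139 transcripts were spread widely around an equal level in brain and testis. Testis was at least 5-fold higher for 43 of them (30.9%), brain was at least 5-fold higher for 25 (18.0%), and 71 were not called, with calls made at a fold of 5 and an adjusted p of 0.05 (limma, Benjamini-Hochberg). Over all 60804 probes, 12.3% were called higher in testis and 15.1% higher in brain. Among the 13464 transcripts that met the same presence and level conditions in brain and testis, whatever the other tissues showed, 7.46% were called higher in testis and 13.3% higher in brain. Because the choice of members asks for a level of at least -1 in both tissues, a large difference can only come from a high level in one of them.

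The differences, testis minus brain, ran from -9.77 to 9.14 on the log2 scale, with a median of 0.50. Over all probes the median difference was -1.06, and over the 11421 transcripts detected in all 5 tissues at the same minimum level it was -0.84. The differences were 16-fold or more in favour of testis for 20 transcripts and in favour of brain for 10, and 64-fold or more for 9 and 4. No share of all probes at these folds is given, so that the counts describe the members alone. Across the members, brain and testis levels had a Spearman rho of -0.09 (n = 139 transcripts on the same arrays), against 0.67 for the transcripts detected in all 5 tissues, which is a description of these probes. The replicate spread was small beside these differences, with a median SD of 0.26 in brain and 0.17 in testis.

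How the calls split between the tissues depended on the scaling. With arrays scaled over probes detected on every tissue array, the all-probe median rose from -1.06 to -0.37, and 51 members were called higher in testis and 17 in brain, against 15.4% and 9.78% of all probes. All 43 and 17 of the 25 calls made above were among these.

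**Figure D2:**
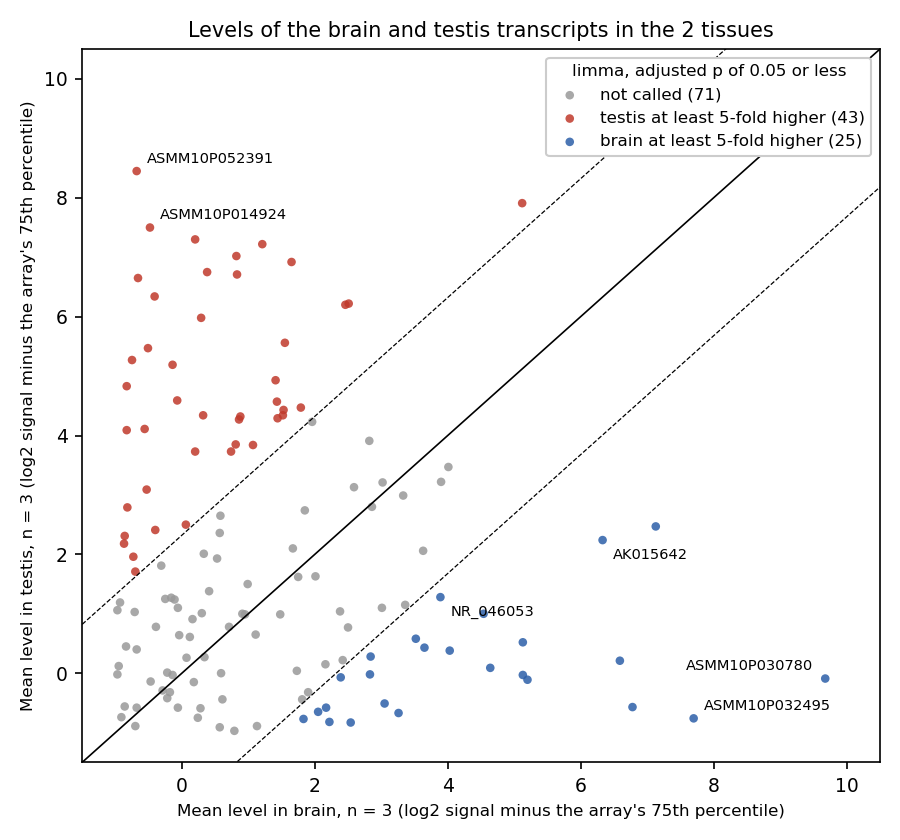
Mean level in testis against mean level in brain (n = 3 each, log2 signal minus the 75th percentile of the array) for the 139 transcripts. The solid line marks equal levels and the dashed lines a 5-fold difference; the 43 red points were called higher in testis, the 25 blue points higher in brain, and the 71 grey points were not called.

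The 43 transcripts with an excess in testis were at a median level of 4.57 in testis and 0.29 in brain. In 18 of the 43 the brain level was under 0. The 2 largest differences belonged to probes that no table used here identifies. ASMM10P052391 read 8.58, 8.32 and 8.46 in testis and 0.14, -1.51 and -0.68 in brain. ASMM10P014924 read 7.63, 7.35 and 7.51 in testis and -0.58, -0.31 and -0.56 in brain. Both were steady across the testis arrays, while ASMM10P052391 varied in brain, with an SD of 0.82, the largest of any member there. Since these probes were picked for the size of their difference, the values are a description.

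The 25 transcripts with an excess in brain were at a median of 3.89 in brain and -0.03 in testis, where 14 of them were under 0. ASMM10P030780 had the highest brain level of all members, at 9.72, 9.66 and 9.65, with -0.26, 0.00 and -0.02 in testis. ASMM10P032495 read 7.56, 7.68 and 7.86 in brain and -2.03, 0.06 and -0.32 in testis. Testis replicate 1 stood low for ASMM10P032495, whose SD of 1.11 was the largest of any member in testis. The fitted differences of these probes were -9.77 and -8.47, again as a description of probes picked for their size.

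Among the 71 transcripts that were not called, 37 still differed at an adjusted p of 0.05 (limma, Benjamini-Hochberg) by less than 5-fold, 21 of them higher in testis and 16 higher in brain. Such differences were found for 8.16% of all probes in favour of testis and 39.7% in favour of brain, and at any fold 75.5% of the members and 75.3% of all probes passed this adjusted p. The other 34 did not pass that test, which does not show equal levels. The shares of all probes are an uneven yardstick. They include probes well above background on no tissue array, as 46611 of the 60804 were so on 1 or more. The median difference over all probes was -1.06, and the 75th percentile was 305 to 384 intensity units in testis and 119 to 154 in brain. How far the scaling shapes these shares was not tested. The 95% interval of the difference lay within 2-fold either way for 14 of the 139 transcripts and within 5-fold either way for 53. A mean level of at least 2 in both tissues was reached by 13 of the 139, and of these 8 were not called, 3 were higher in testis and 2 in brain. ASMM10P041355, singled out after its values were seen, was the most abundant in both tissues together, with 5.16, 5.16 and 5.05 in brain and 8.02, 7.78 and 7.93 in testis. Near-equal levels were read for ASMM10P054739, at 2.71, 3.33 and 3.03 in brain and 3.18, 3.26 and 3.18 in testis, where the arrays of the tissues overlapped. ASMM10P028528 was higher still, at 3.86, 3.69 and 4.48 in brain and 3.25, 3.54 and 3.61 in testis, with no overlap between the tissues. Its fitted difference of -0.54 did not pass the test (limma, Benjamini-Hochberg adjusted p = 0.278). Both probes were picked after their values were seen.

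**Figure D3:**
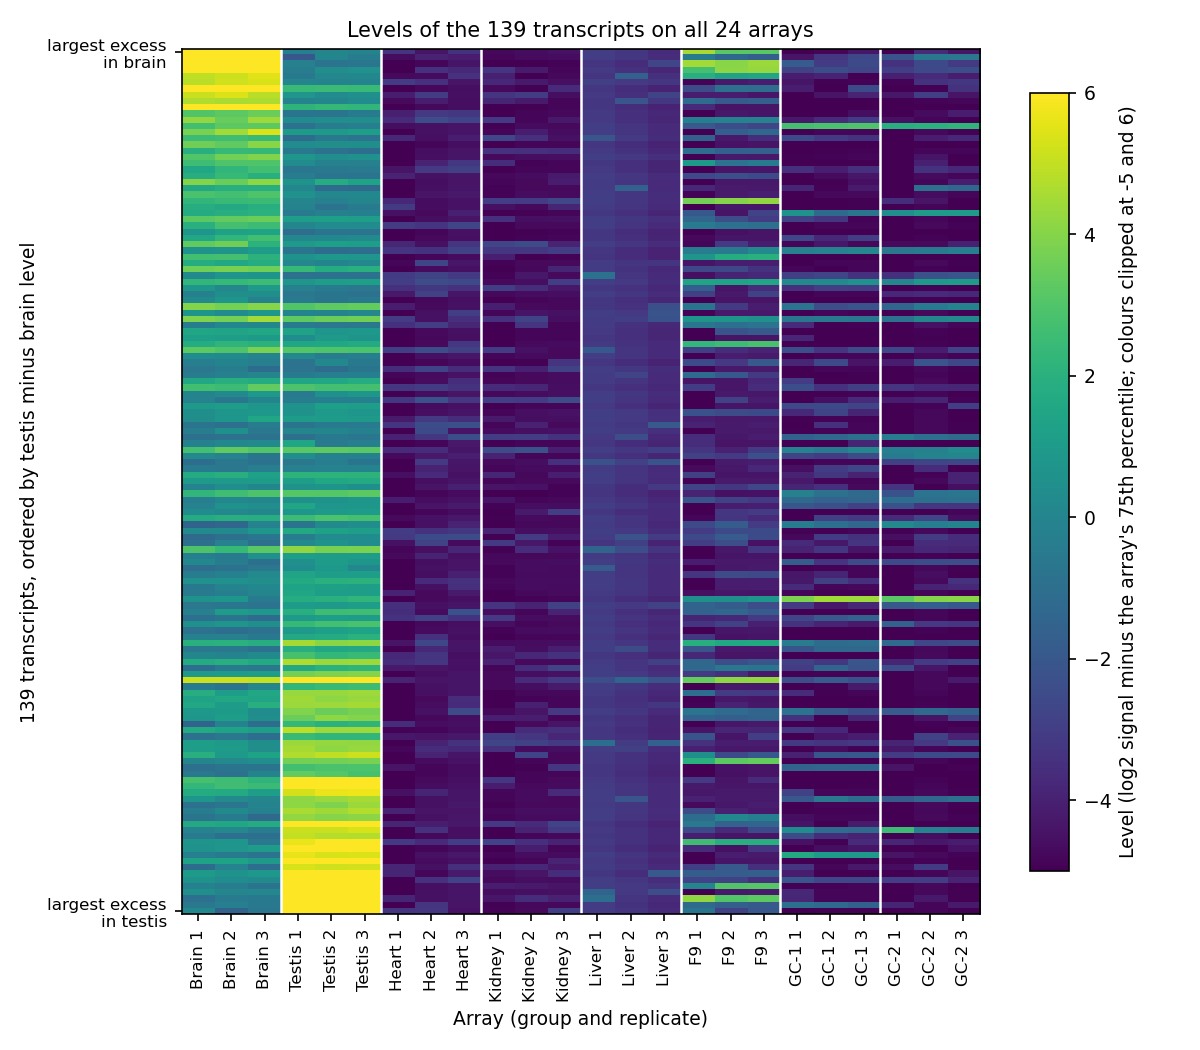
Levels of the 139 transcripts (rows, ordered by testis minus brain level) on all 24 arrays (columns, by group and replicate), as log2 signal minus the 75th percentile of the array, with colours clipped at -5 and 6. The rows pass from high brain levels at the top to high testis levels at the bottom, the heart, kidney and liver columns are dim, and single rows are bright in F9 or in GC-1 and GC-2.

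How far the members were absent from heart, kidney and liver depended on the array. Their mean levels there had medians of -4.44 in heart, -4.57 in kidney and -3.33 in liver, against 0.82 in brain and 1.19 in testis. The lowest level that was well above background lay between -1.61 and -0.98 on the liver arrays, between -3.25 and -2.33 on the heart arrays and between -2.93 and -2.56 on the kidney arrays, while on the testis arrays it was -4.87 to -4.44. A liver level just under -1 could thus go unflagged when the same level in testis was flagged. In brain, the bound over each of the other tissues ranged from at least 1.25-fold to at least 2000.0-fold, with a median of 4.33, and it was at least 5 for 63 of the 139. In testis it ranged from at least 1.25-fold to at least 857-fold, with a median of 5.57, and it was at least 5 for 76. In both tissues, 72 members were 2-fold or more above the lowest well-above-background level of every heart, kidney and liver array. Of these 72, 25 (34.7%) were called higher in testis and 11 (15.3%) higher in brain.

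The weaker flag was set more often. Of the 139 members, 20 had no positive and significant signal on any of the 9 heart, kidney and liver arrays, AK015642 among them. By contrast 45 had such a signal on all 3 arrays of heart, kidney or liver. This was the case for 29 in heart, 23 in kidney and 4 in liver. Just inside the minimum level were ASMM10P047312, at -0.97 in brain, and ASMM10P032315, at -0.97 in testis, and just outside were ASMM10P041098 and ASMM10P045797, both just under -1 in testis.

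Among identified transcripts, 4 had the flags of the members and were left out for a testis level under -1, which was between -3.96 and -1.45. Resp18, which encodes a secretory protein of endocrine and neural tissue, was at 6.45 ± 0.09 in brain and -2.85 ± 0.27 in testis through its lncRNA uc011wno.1. AK039650 was at 4.90 ± 0.32 and -3.96 ± 0.23, and AK046858 at 4.49 ± 0.48 and -1.45 ± 0.19. The testis level of AK039650 lay below its means of -3.15 in heart, -2.76 in kidney and -2.57 in liver, where it was not flagged. The lowest level well above background was -4.87 to -4.44 on the testis arrays. For the others of the 4, testis lay above the heart, kidney and liver means. TCONS_00008304, at 4.32 ± 0.28 in brain and -2.74 ± 0.55 in testis, was the only one of these 4 found on all 3 arrays of a line, F9, with -1.05 ± 0.27 (SD, n = 3). A further 60 transcripts missed the choice because exactly 1 of the 9 other arrays was well above background. The 1 identified among these was uc007ocn.1 of Ttc9, with 4.67 ± 0.13 in brain and 1.06 ± 0.17 in testis, flagged on 1 heart array. The array annotation lists uc011wno.1 and uc007ocn.1 as exonic sense to Resp18 and Ttc9. AK039650, AK046858 and TCONS_00008304 are listed as intergenic but lie within the RefSeq spans of Kcnk9, Kcnq3 and the pseudogene Gm17514. Signal from these lncRNAs and from transcripts of those genes was not separated here.

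The cell lines were not used in choosing the members, and most members were not found in them. Detection in a line means here that all 3 of its arrays were well above background. F9 held 33 of the 139 (23.7%), GC-1 held 21 (15.1%) and GC-2 held 19 (13.7%), while 36.7%, 40.9% and 40.9% of all probes were detected in the 3 lines. Of the members, 58 were well above background on none of the 9 line arrays. The other 81 of the 139 were so on 1 line array or more, as were 35172 of the 60804 probes. These are similar shares, so that the count of 58 does not set the members apart from all probes. In at least 1 line 49 members (35.3%) were detected, against 46.4% of all probes. The share lay between those of transcripts chosen in the same way for other tissues. Of the 11421 transcripts detected in all 5 tissues, 99.5% were found in at least 1 line, and of the 506 found in brain alone and the 2292 found in testis alone, 11.1% and 8.42%. These shares are set side by side with no test.

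**Figure D4:**
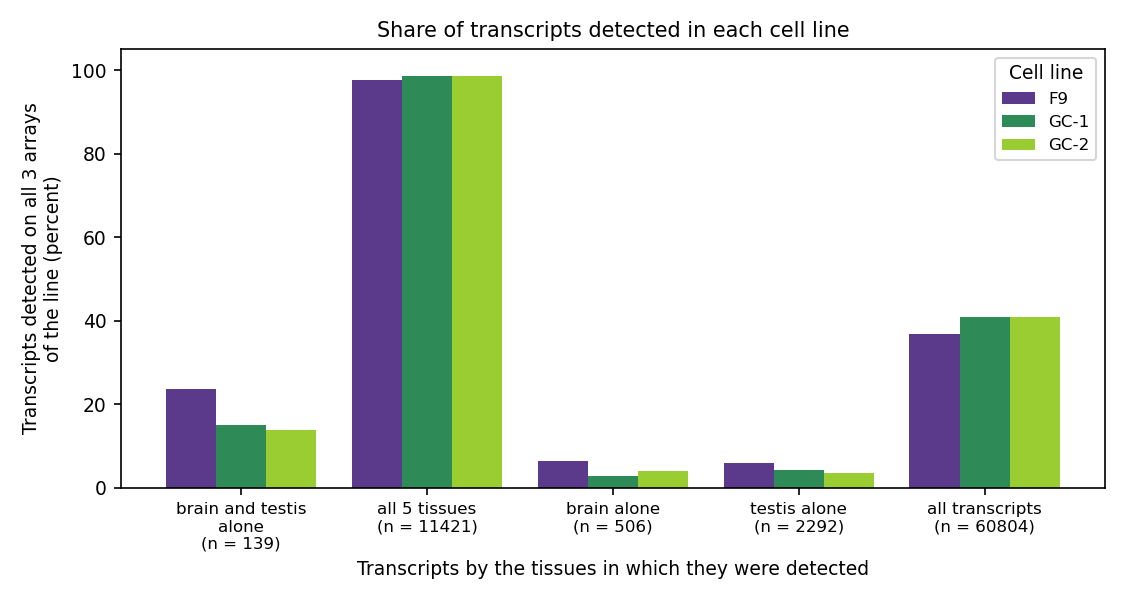
Percent of transcripts that were well above background on all 3 arrays of F9, GC-1 or GC-2 (bars from 0), for the 139 transcripts of brain and testis, for those detected in all 5 tissues, in brain alone or in testis alone, and for all 60804. The bars of the 139 are at 23.7, 15.1 and 13.7 percent, above those of brain alone and testis alone and below those of all 5 tissues.

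Detection in F9 alone was the most frequent pattern among the members found in a line. It held for 24 members (17.3%), where 2.27% of all probes had it. Among transcripts of brain alone it held for 27 of 506 (5.34%), and among those of testis alone for 74 of 2292 (3.23%). As a part of those found in any line, these were 24 of 49 members, 27 of 56 and 74 of 193, so that the pattern is not particular to the members. Detection in GC-1 and GC-2 without F9 held for 10 members (7.19%), against 4.95% of all probes, and detection in all 3 lines for 5 (3.60%), against 32.8% of all probes. These 5 were ASMM10P028350, ASMM10P028528, ASMM10P032315, ASMM10P052992 and ASMM10P054499, named because of their small number. A further 3 were detected in GC-1 alone (ASMM10P004139, ASMM10P005274 and ASMM10P049418) and 3 in GC-2 alone (ASMM10P002280, ASMM10P011459 and ASMM10P051743). F9 and GC-1 shared 3 (ASMM10P014924, ASMM10P027720 and ASMM10P041355), and F9 and GC-2 shared ASMM10P032495.

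The 24 transcripts of F9 alone included members with large differences between the tissues. The following examples were picked after their values were seen. ASMM10P028316 read 6.73, 6.70 and 6.92 in brain, -0.19, -0.83 and -0.68 in testis and 4.47, 4.03 and 4.34 in F9. ASMM10P044808 read 6.45, 6.86 and 6.45 in brain, -0.39, 0.45 and 0.57 in testis and 2.71, 4.10 and 4.27 in F9. In both, every F9 array lay between the brain and the testis arrays. ASMM10P004402 read 6.84, 6.67 and 6.45 in testis, -1, -0.43 and -0.54 in brain and 4.18, 3.01 and 3.23 in F9. ASMM10P010869 read 6.41, 6.47 and 6.16 in testis, -0.16, -0.33 and -0.76 in brain and 0.01, 3.03 and 3.08 in F9. Here F9 lay between a high testis and a low brain level, and F9 replicate 1 was apart from the other F9 arrays for ASMM10P010869.

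Of the 10 transcripts shared by GC-1 and GC-2 without F9, 7 were not called between the tissues, 2 were higher in testis and 1 was higher in brain. The 1 higher in brain was ASMM10P047452, at 2.68, 3.23 and 3.24 in brain and -0.89, -0.33 and -0.31 in testis. Its GC-1 arrays read 2.76, 2.86 and 2.95 and its GC-2 arrays 1.90, 2.03 and 2.20, while F9 read -1.93, -2.37 and -2.68. Both GC lines thus lay above testis and F9, and GC-1 was within the range of the brain arrays. The 2 higher in testis, ASMM10P017454 and ASMM10P035175, had lower levels in the lines than in testis, with 0.35, -1.15 and -1.19 in GC-1 for the first and -2.03, -0.64 and -1.09 for the other. ASMM10P052992, of the 5 found in all 3 lines, read 1.39 to 1.49 in F9, 0.26 to 0.57 in GC-1 and 0.09 to 1.04 in GC-2, so that its F9 arrays lay above those of both GC lines.

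The transcripts with a brain excess and those with a testis excess differed in their counts by line. F9 held 11 of the 25 higher in brain (44.0%), GC-1 held 1 and GC-2 held 2. Of the 43 higher in testis, F9 held 12 (27.9%), GC-1 held 8 and GC-2 held 3. Among the 71 not called, F9 held 10, GC-1 held 12 and GC-2 held 14. The 3 members detected in GC-1 alone were all higher in testis, and the 3 detected in GC-2 alone were all among those not called. The counts are small and no test of the difference between them was made.

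**Figure D5:**
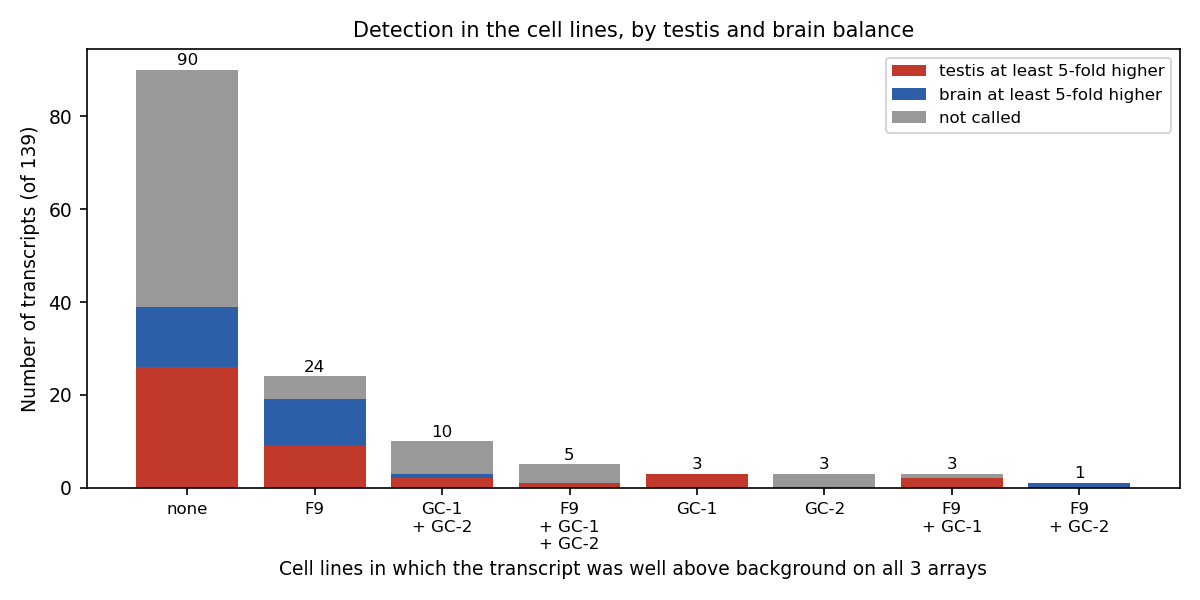
Number of the 139 transcripts by the cell lines in which all 3 arrays were well above background, stacked by the call between testis and brain. The column for no line holds 90 transcripts and that for F9 alone holds 24, of which 9 were higher in testis and 10 higher in brain.

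Where a member was detected in a line, its level was mostly below that in both tissues. This was so for 18 of 33 in F9, 16 of 21 in GC-1 and 11 of 19 in GC-2. Levels above both tissues were found for 2 members in F9 and for 1 each in GC-1 and GC-2, named after their values were seen. In F9 these were ASMM10P010487, with 3.70, 4.02 and 4.20 against means of 2.39 in brain and -0.07 in testis, and ASMM10P043966, with 2.29, 2.54 and 2.78 against means of 2.01 and 1.63. The F9 and brain arrays did not overlap for either probe. In both GC lines it was ASMM10P028350, which on the GC-1 arrays read 3.81, 4.43 and 4.41 and on the GC-2 arrays 3.17, 3.96 and 4.04, against means of 2.01 in testis, 0.33 in brain and 0.58 in F9.

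The members that were extreme in the tissues had various levels in the lines. ASMM10P030780, the brain-highest, was at 4.54, 3.17 and 3.18 in F9, above its testis arrays, and was not well above background on any GC-1 or GC-2 array. ASMM10P032495 was at -0.50, -1.28 and -1.67 in F9 and at -2.20, -0.58 and -0.63 in GC-2. ASMM10P014924, high in testis, was at -1.19, -1.68 and -1.87 in F9 and at -0.92, -1.24 and -1.60 in GC-1. ASMM10P052391, the testis-highest, was well above background on 1 F9 array only.

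Between the lines, more members were called in favour of F9 than against it. Line contrasts were fitted over the 9 line arrays. F9 was at least 5-fold above GC-1 for 27 members (19.4%) and GC-1 above F9 for 9 (6.47%), where 3.42% and 3.72% of all probes were called (limma, Benjamini-Hochberg adjusted p of 0.05). F9 exceeded GC-2 for 33 members (23.7%) and GC-2 exceeded F9 for 10 (7.19%), where 3.75% and 3.14% of all probes were called. An excess for F9 was also found in transcripts of 1 tissue alone. F9 over GC-1 and the reverse were called for 8.3% and 1.58% of those of brain alone, and 4.45% and 1.13% of testis alone. F9 over GC-2 and the reverse were called for 7.71% and 2.37% of brain alone, and 4.8% and 0.742% of testis alone. The comparisons share the F9 arrays. Against both GC lines F9 was higher for 27 members and lower for 7, as it was for 2.61% and 1.77% of all probes. After normexp background correction the calls were fewer, with 12 and 2 against each GC line, and those of all probes fell to 0.905% and 1.15% against GC-1 and to 1.04% and 1.06% against GC-2.

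Many of these calls rest on a line in which the probe was dim. In 22 of the 27 calls of F9 over GC-1 no GC-1 array was well above background, and in 28 of the 33 calls over GC-2 no GC-2 array was. For the 21 members detected in F9 and on no GC-1 array, the bound was at least 2.17-fold to at least 115-fold, and it reached 5 for 12. For the 22 against GC-2 it was at least 2.36-fold to at least 125-fold, and it reached 5 for 13. In the other direction, 6 members were detected in GC-1 and 5 in GC-2 while on no F9 array, and the bound over F9 reached 5 for 1 of each, at most 12.2-fold and 5.09-fold. Of the 5 detected in GC-1 and on no GC-2 array, it reached 5 for 1. The highest bounds of F9, of 115-fold and 125-fold, were those of ASMM10P010487.

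GC-1 and GC-2 differed less for the members. GC-1 was called higher for 6 (4.32%) and GC-2 for 1 (0.719%), where 2.03% and 1.2% of all probes were called. The 1 transcript higher in GC-2 was ASMM10P002280, at -0.46, -0.02 and 0.01 in GC-2 and -2.74, -3.03 and -2.44 in GC-1. The largest excess of GC-1 was that of ASMM10P004139, picked after its values were seen, at 1.68, 1.02 and 0.89 in GC-1. On the GC-2 arrays it read -4.43, -4.70 and -4.88, none well above background, so that GC-1 was at least 18.2-fold higher. Without GC-2 replicate 1 the calls were 7 for GC-1 and 3 for GC-2, where 2.07% and 1.3% of all probes were called.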

How the data were processed

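The authors hybridized Cy3-labelled RNA to 24 Arraystar mouse lncRNA arrays and deposited, per the file headers, the Agilent Feature Extraction output of each, in which the processed signal is an intensity after background subtraction with no normalization between arrays. The deposited series table holds the same intensity values, to a relative difference of at most 0.000228. The labels name Trizol and the study's methods an RNeasy kit for extraction. Here the log2 processed signal of 60804 transcript probes was centred on the 75th percentile of each array (30.7 to 384 intensity units). Between 18257 and 37393 probes per array were well above background, and the number of arrays limits the precision. No member was saturated on any array.

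Testis was compared with brain in a limma (3.58.1, R 4.3.3) fit over the 15 tissue arrays, and the lines with each other over the 9 line arrays, with 1 coefficient per group and Benjamini-Hochberg adjustment over all probes. Calls asked for a fold of 5, as in the study's methods, and an adjusted p of 0.05. The files hold no mean signal, so that normexp (offset 50) was run on the median signal in its place. Bounds use, for a dim probe, the higher of its own level and the lowest level well above background on that array. Identified members, and the 2 unidentified ones with the largest difference each way, are named, and other names are marked as chosen after their values were seen. Coordinates are GRCm38, as the annotated span of NR_046053 equals that of its RefSeq gene, and the tables give no strand for Pnmal1. The members and lists were chosen with earlier results of these data known. Of 42 marker genes of brain, testis and other cells, 8 had an identified probe, none of them a member, so that no list could be scored. Probes of Snap25 (ENSMUST00000125486), Rbfox3 (ENSMUST00000134774) and Mobp (uc009scm.1) were well above background on the 3 brain arrays alone. That of Gap43 (ENSMUST00000125187) was so on these, on 2 heart arrays and on all line arrays, and that of Map2 (ENSMUST00000128673) on these, on 1 testis array and on the GC-2 arrays. Stra8 and Zfp42 were so on the testis and F9 arrays, and Star on the testis, GC-1 and GC-2 arrays and on 1 array each of brain, heart and F9.

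Replicate 1 of all 8 groups shared slide 1. Slide 2 held replicates 2 and 3 of testis, brain, kidney and liver, and slide 3 those of heart and the lines. Deviations of same-numbered arrays correlated in every pair over 0.1 for F9 with GC-1 (r of 0.20, 0.11 and 0.11) and for GC-1 with GC-2 (0.29, 0.13 and 0.13). Unlike-numbered replicates 2 and 3 correlated too, with r of 0.05 and 0.07 for F9 with GC-1 and 0.11 and 0.14 for GC-1 with GC-2. Replicate 1 was negatively correlated with replicates 2 and 3 in these pairs of lines. Deviations from the mean of 3 arrays cancel out, so that these signs partly follow from the positive values and are no separate evidence. A pairing by number was thus not separated from the slides, where the labels name no shared day or culture and replicate 1 shares a slide. Alternatives covered flags, level limits, scaling, background correction, blocks, tests and single arrays left out.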

Additional observations from a re-analysis of the deposited data

How the results depend on the processing

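The number of members moved most with the definition of presence. It was 20 with the flag for a positive and significant signal, 292 (131 of them members) with 1 common level of -1.19 on all arrays, 72 with a minimum level of 0 and 293 with -2, and 139 to 167 with single arrays left out, the highest without heart replicate 1. Between testis and brain, a fold of 2 gave 60 and 39 calls (18.7% and 49.4% of all probes). The 72 members at least 2-fold above the lowest well-above-background level of every heart, kidney and liver array gave 25 and 11. These are the same 72 transcripts as with a minimum level of 0. No member called in the reported fit was called in the opposite direction in any setting. Leaving out single arrays gave 42 to 44 calls for testis (12.1% to 12.5% of all probes) and 25 to 26 for brain (15% to 15.5%). Between the lines, normexp gave 12 and 2 calls in F9 against either GC line and 0 by limma between GC-1 and GC-2 (1 and 6 members had an adjusted p of 0.05 at a smaller fold, and the methods' t-test on the uncorrected values called 7), and a fold of 2 gave 42 and 17 for F9 against GC-1 (10.2% and 9.33% of all probes) and 13 between the GC lines. Slide 1 alone, with no test, gave 14 between the GC lines. Without single arrays the line calls were 26 to 30 and 8 to 10 for F9 and GC-1, 31 to 35 and 9 to 11 for F9 and GC-2, and 7 to 10 between the GC lines. Of all probes, 3.36% to 3.48% and 3.62% to 3.88% were then called for F9 and GC-1. For F9 and GC-2 these shares were 3.74% to 3.93% and 3.03% to 3.31%. Between the GC lines they were 1.13% to 1.3% for GC-2 and 1.88% to 2.15% for GC-1. The less strict flag gave 66, 55 and 46 members in F9, GC-1 and GC-2, and the members at least 2-fold above the other tissues held 19, 10 and 8. With 1 array of a line left out, 34 to 35, 23 to 25 and 20 to 22 were detected. No share of all probes is given for the less strict flag or with an array left out, so that these counts describe the members alone. The NR_046053 difference also missed the 5-fold limit within slide 2 (-2.24), and was -3.34 on slide 1. The causes were not tested. The replicate block gave 43 and 25 calls between testis and brain, 27 and 9 for F9 and GC-1, 34 and 10 for F9 and GC-2 and 7 between the GC lines. The block's shares of all probes were 12.3% and 15.1% for testis and brain, and 3.4% and 3.71% for F9 and GC-1. They were 3.75% and 3.16% for F9 and GC-2, and 1.2% and 2.04% for GC-2 and GC-1. Deviations of same-numbered arrays correlated with r of 0.18, 0.12 and 0.05 between brain and testis. The scaling read from the supplementary tables, chosen after seeing the data, gave 175 members and, for the 139, 49 and 18 calls (14.7% and 10.7% of all probes). Signal over background limits what absence means, most in liver.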
